A study of Mus musculus with 26 samples.

Results

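Gene expression was compared between Prdm14(-/-) and Prdm14(+/+) mouse embryonic stem cells after 2 days in serum medium with an inhibitor of the kinase MEK. The comparison holds 4 of the 26 arrays of the series, 2 labelled Prdm14 knockout and 2 wild type, chosen by their titles. All 18193 genes were described, each by the probe set that was brightest on average across the 26 arrays. Both groups were male C57BL/6 cells kept on mouse embryonic fibroblast feeders. Their medium was GMEM with 20% fetal bovine serum, LIF at 1000 units per ml and the MEK inhibitor PD0325901 at 0.4 uM. The wild-type cells carried no genetic modification, and the knockout cells are described in the labels as stem cell-like. The position of the Prdm14 deletion, the number of clones and whether replicates were separate cultures are not stated in the labels. Each p-value is thus set against array-to-array spread, part or all of which may be technical. The same genotypes were also grown in serum with LIF and no inhibitor, and in 2i, which is N2B27 with PD0325901 at 0.4 uM, the GSK3 inhibitor CHIR99021 at 3 uM and LIF. These groups serve below to test whether a genotype difference differed between media. Both genotypes in serum without LIF, knockout cells that carry the pPyCAG-AGP14 transgene (in 2i, in serum and in serum without LIF), and Prdm14(+/+) epiblast-like cells of day 2 and day 3 from a line with Blimp1-mVenus and Stella-ECFP transgenes are used for levels beside these results. The transgene cells and the epiblast-like cells are male C57BL/6 as well, and the serum media were applied for 2 days.

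Prdm14 is a PR-domain zinc finger protein of naive stem cells and primordial germ cells. It is known as a repressor of FGF receptor signalling and of the de novo DNA methylation genes, acting with polycomb and with corepressors of the MTG family. FGF signals through MEK to the kinase ERK, which drives stem cells out of the naive state, and a MEK inhibitor cuts that route downstream of the receptor. Cells with and without Prdm14 under the inhibitor thus show which genotype differences are present when the pathway is blocked. The 2i medium adds a GSK3 inhibitor and has no serum, so it differs from serum with MEK inhibitor in more than 1 component.

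Values are signals on the deposited log scale, whose base of 2 was inferred from their range, so that a difference of 1 is read as a 2-fold change. A gene is said to have risen or fallen when its level was higher or lower in the arrays labelled knockout at an adjusted p under 0.05 (limma, all 26 arrays in 1 model, Benjamini-Hochberg over all genes). The standard error of a difference is given as SE. Levels under 4.92, the median of all deposited values, are called dim, and the size of a difference from a dim level is uncertain.

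With MEK inhibitor the Prdm14 probe set was not lower in the arrays labelled knockout. It read 9.04 and 9.48 in wild type and 10.60 and 10.87 in the arrays labelled knockout. Both arrays labelled knockout lay above both wild-type arrays, a rise of 1.48 (SE 0.41, adjusted p = 0.0491) that was lost in each of the 4 fits without 1 array (adjusted p from 0.078 to 0.313). In the other media the labelled knockout minus wild type difference was 2.11 in 2i (adjusted p = 0.00268), -0.70 in serum (0.389) and -1.10 without LIF (0.153). The level was 2.90 and 3.07 in epiblast-like cells of day 3 and day 2, and 9.20, 6.38 and 4.99 in knockout cells with the AGP14 transgene in 2i, in serum and without LIF. A probe outside a deletion does not test a knockout, so every direction below rests on the labels.

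Wild-type replicate 1 stood apart on 2 chromosomes. Over 7617 genes with a mean log2 level above 7, the median gene of chromosome 11 was 0.34 lower in the arrays labelled knockout than in wild-type replicate 1, and that of chromosome 16 was 0.44 lower. Against wild-type replicate 2 the same medians were 0.008 and -0.03. On the other 18 chromosomes the medians lay between -0.035 and 0.035 against replicate 1 and between -0.03 and 0.045 against replicate 2. Relative to the other chromosomes, wild-type arrays numbered 1 were high on both in every medium, by 0.259 to 0.351 on chromosome 11 and by 0.321 to 0.362 on chromosome 16. Wild-type arrays numbered 2 were also high on chromosome 11 in serum (0.135) and without LIF (0.136), but not in 2i (-0.058) or with MEK inhibitor (-0.067), nor on chromosome 16 (-0.114 to -0.008). Copy number was not measured, and its part in these differences was not tested. Results that lean on this array are given with and without it.

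**Figure D1:**
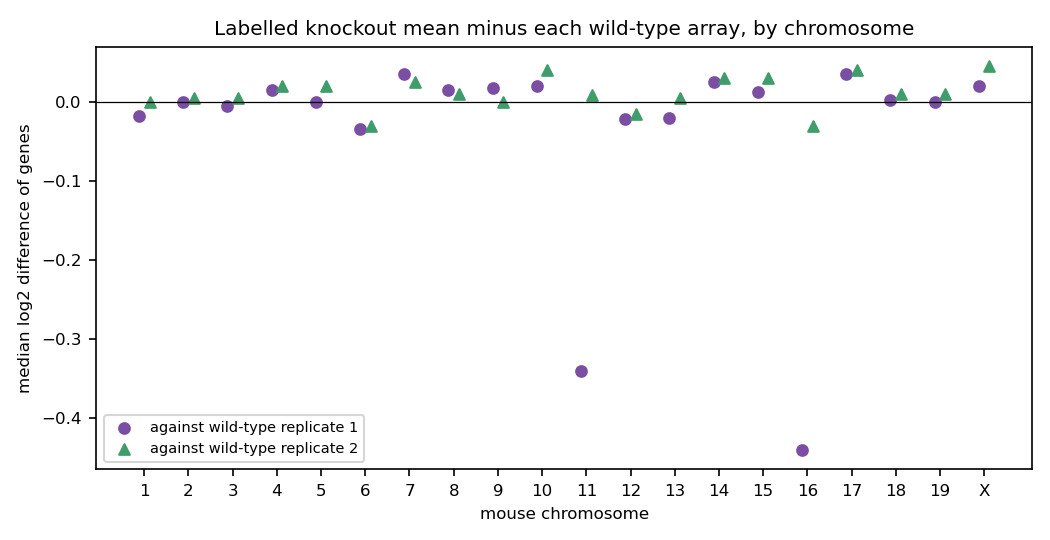
Median log2 difference of the genes of each mouse chromosome (x axis), for the mean of the 2 arrays labelled knockout minus wild-type replicate 1 (circles) or replicate 2 (triangles). Chromosomes 11 and 16 lie at -0.34 and -0.44 against replicate 1 alone, and every other point lies within 0.045 of 0.

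The medians of the 4 arrays lay between 4.96 and 5.01. The mean of 10 pluripotency markers was 11.84 and 11.85 in wild type and 11.80 and 11.84 in the arrays labelled knockout, and of 17 measured feeder fibroblast markers 7.35, 7.42, 7.09 and 7.44 in the same order. The mean of 10 extraembryonic endoderm markers lay between 4.30 and 4.58. That of 5 mesoderm markers lay between 3.04 and 3.54, and that of 5 neuroectoderm markers between 5.82 and 5.96. The mean of 8 trophoblast markers was 4.07 and 3.84 in wild type against 4.36 and 4.69 in the arrays labelled knockout. These means do not overlap, as was so for 39.6% of single genes. Of the 8 markers only Esx1 was called (5.32 and 5.24 against 6.78 and 7.90), and 4 were dim on all 4 arrays. The summed trophoblast level was 32.6 and 30.7 against 34.9 and 37.5, and its part in the results below was not tested. The feeder mean was lowest in labelled-knockout replicate 1. No marker was at 0 on all 4 arrays. In such bulk RNA, fewer cells of a type and less RNA per cell cannot be told apart. The added poly-A control lys read 13.39 to 13.57 on the 12 arrays that include serum with MEK inhibitor and 2i, and 6.77 to 7.38 on the 14 that include serum, so levels in serum come from arrays labelled under another control level.

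With MEK inhibitor 338 genes rose (1.86% of genes tested) and 404 fell (2.22%), 742 in all (4.08%). The median rise was 0.67 and the median fall 0.72 in size. Rises over 1 numbered 71 and falls over 1 numbered 130, and 9 rises and 25 falls were over 2. The falls were thus more often large than the rises. The call held in each of the 4 fits that left out 1 array for 91 rises and 97 falls, and in none of them for 43 and 57. Without wild-type replicate 1 the counts were 182 rises and 152 falls, with 297 of the 742 genes still called, and without labelled-knockout replicate 1 or 2 there were 442 and 460 calls. On chromosome 11 there were 12 rises and 46 falls, which became 4 and 13 without that array, and on chromosome 16 there were 1 and 18, which became 1 and 5. The values of the 2 groups did not overlap for 7208 genes (39.6%), so non-overlap alone says little here.

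**Figure D2:**
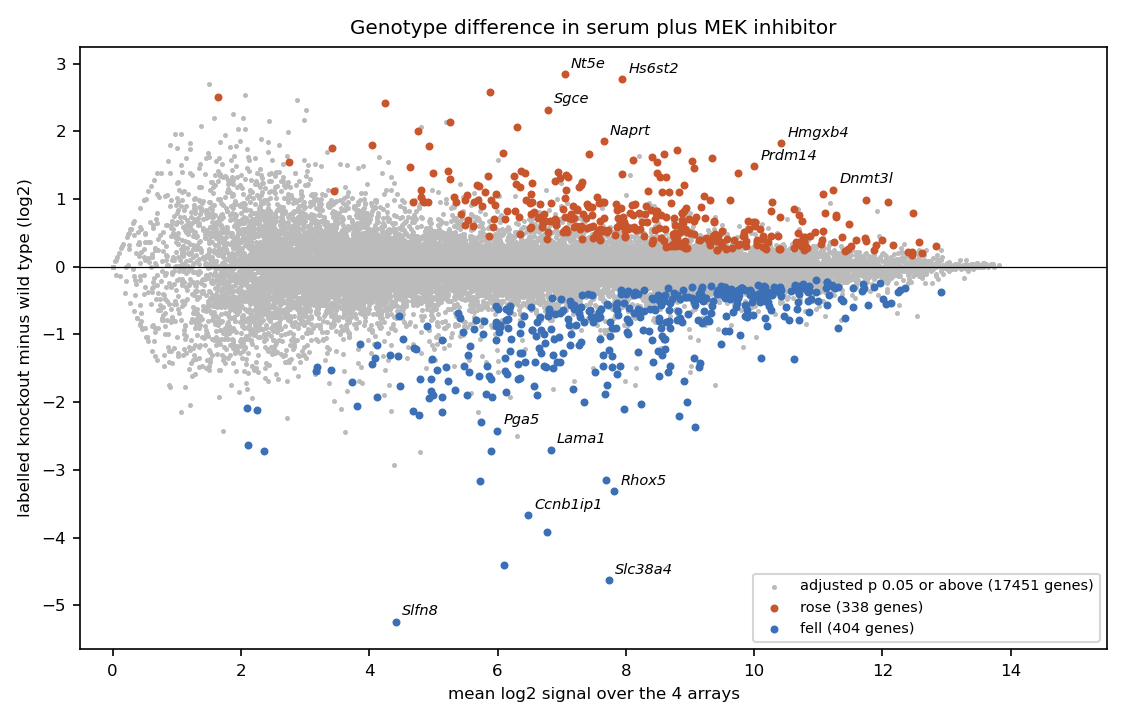
Labelled knockout minus wild type (log2, y axis) against the mean log2 signal of the 4 arrays (x axis) for 18193 genes. Genes that rose (338) are in orange and genes that fell (404) in blue, and the largest falls reach -5.24 while no rise exceeds 2.84.

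The largest fitted falls were in Slfn8, Slc38a4, Gm21283, 2300002M23Rik and Ccnb1ip1. Slfn8, a member of the Schlafen family, read 7.28 and 6.80 in wild type and 1.42 and 2.19 in the arrays labelled knockout. Its fitted fall was 5.24 (SE 0.33, adjusted p = 2.37e-08), of uncertain size because both labelled-knockout levels are dim. The fall was 5.0 without wild-type replicate 1, and Slfn8 lies on chromosome 11. Slc38a4, an imprinted amino acid transporter gene, read 10.32 and 9.79 against 4.76 and 6.09 (-4.63, SE 0.40, adjusted p = 2.14e-06), and its further probe set differed by -3.74. Ccnb1ip1, which encodes a ubiquitin ligase of meiotic crossing over, read 8.29 and 8.34 against 4.75 and 4.54 (-3.67, SE 0.20, adjusted p = 6.38e-09).

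Rhox5, a reproductive homeobox gene of the X chromosome, read 10.37 and 8.58 against 6.01 and 6.32 (-3.31, adjusted p = 0.00186). The wild-type arrays differed from each other, and the fall was 2.42 in size without replicate 1. Lama1, the laminin alpha 1 chain, read 8.15 and 8.22 against 5.35 and 5.61 (-2.70, adjusted p = 0.000316). The other large falls were in Vwf (-3.16), the von Willebrand factor of blood clotting, Serpinb6c (-3.15), Trpm1 (-2.72), a cation channel gene, the pepsinogen gene Pga5 (-2.42), Fermt3 (-2.29), an integrin activator, and Gm21283 (-4.40) and 2300002M23Rik (-3.91), whose roles are not described here. Trpm1 has 3 further probe sets between -0.68 and -0.05, and its call did not hold for their mean (adjusted p = 0.238).

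Labelled-knockout levels were dim on both arrays for Slfn8, Gm21283, Ccnb1ip1, Vwf, Trpm1 and Pga5, and all 4 levels were dim for Birc7 and Veph1. Of the 15 largest falls, 12 held in each of the 4 fits that left out 1 array. The exceptions were Birc7 (-2.72), Veph1 (-2.63) and Rpl39l (-2.36). Birc7 had adjusted p from 0.0846 to 0.217, Veph1 from 0.135 to 0.311 in the 3 fits that lost it, and Rpl39l, a gene of chromosome 16, from 0.141 to 0.154 and 0.0576 for the mean of probe sets. The same fall was called in serum for 11 of the 15 genes and in 2i for 13. Of all genes 2.79% fell in serum and 5.52% in 2i.

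The largest rises were in Nt5e, Hs6st2, Slc44a3, Psg18 and Pglyrp1, and the most precisely measured included Naprt and Hmgxb4. Nt5e, an ecto-nucleotidase that makes adenosine, read 5.56 and 5.69 in wild type and 8.83 and 8.11 in those labelled knockout (2.84, SE 0.25, adjusted p = 2.16e-06). Its 2 further, dimmer probe sets differed by -0.40 and 0.54, so the rise rests on 1 probe set. Hs6st2, which adds sulfate to heparan sulfate, a coreceptor of FGF, read 6.81 and 6.30 against 9.09 and 9.56 (2.77, SE 0.17, adjusted p = 2.37e-08), and its 3 further probe sets differed by 0.84 to 2.31. Naprt, the entry enzyme of NAD synthesis from nicotinate, read 6.92 and 6.53 against 8.60 and 8.58 (1.86, SE 0.13, adjusted p = 1.41e-07).

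Hmgxb4, a gene for an HMG box protein, read 9.75 and 9.27 against 11.35 and 11.32 (1.82, SE 0.13, adjusted p = 1.13e-07), with 0.25 and 0.45 in its further probe sets. In each of these 4 genes both arrays labelled knockout lay above both wild-type arrays by more than the spread within either group. Non-overlap was part of their choice, and 39.6% of all genes did not overlap. The other large rises were in the choline transporter-like gene Slc44a3 (2.58), Pglyrp1 (2.42), a peptidoglycan recognition protein, Sgce (2.32), which encodes epsilon-sarcoglycan, Trim67 (2.13), Lypd6b (2.01), the Rac exchange factor Prex2 (1.78) and Prom1 (1.72), which encodes prominin. Prex2 had a further probe set near background with a difference of 0.01, and its call did not hold for the mean of probe sets (adjusted p = 0.379).

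Of the 15 largest rises, 11 held in each of the 4 fits that left out 1 array. The imprinted gene Peg10 (1.80) was lost in all 4, Psg18 (2.51) and the placental homeobox gene Esx1 (2.06) in 3, and Aadac (1.76) in 2. Without wild-type replicate 1 the difference was 2.18 in Peg10, 2.17 in Psg18, 2.1 in Esx1 and 1.19 in Aadac. Without labelled-knockout replicate 2 it was 1.5 in Esx1 and 1.47 in Peg10. All 4 levels of Psg18 (0.06 and 0.73 against 2.84 and 2.97) and Aadac were dim, and both wild-type levels of Pglyrp1, Trim67, Lypd6b, Peg10 and Prex2. The same rise was called in serum for 3 of the 15 genes and in 2i for 10. Of all genes 1.39% rose in serum and 3.63% in 2i.

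**Figure D3:**
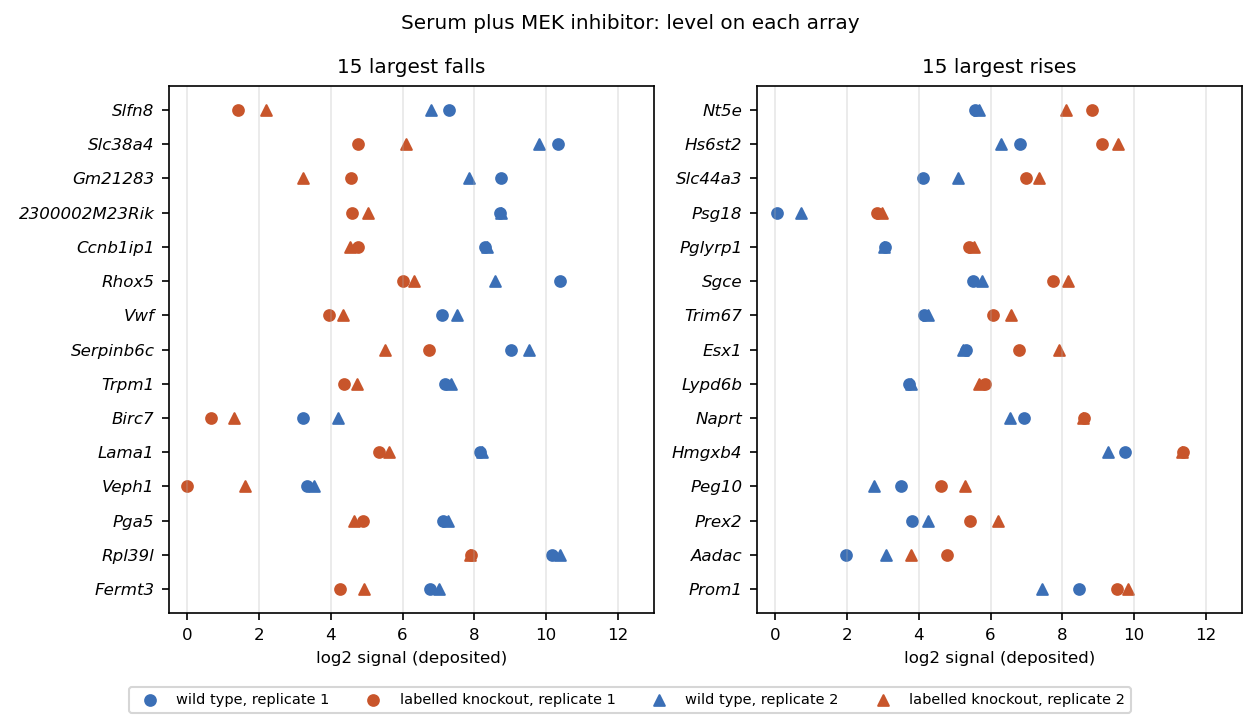
Log2 signal (x axis) of the 15 largest falls (left) and rises (right) on each of the 4 arrays, wild type in blue and labelled knockout in orange, with circles for replicate 1 and triangles for replicate 2. The colours do not overlap in these 30 genes because non-overlap was part of their choice, and 39.6% of all genes did not overlap. Levels run from 7.28 and 6.80 against 1.42 and 2.19 in Slfn8 to 5.56 and 5.69 against 8.83 and 8.11 in Nt5e.

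The upstream 250 bases of 3 of these genes are shown because they hold the sequence features examined below. They are from RefSeq for build GRCm38.p6 (the strand is that of the gene). The windows of Ccnb1ip1 and Slfn8 are the first listed for each gene. That of Hmgxb4 is the first listed that holds the motif given below, so it was picked for its match. For Ccnb1ip1 (chr14:50795729-50795978, minus strand) and Slfn8 (chr11:83020811-83021060, minus strand), capitals mark the CG dinucleotides at which DNA is methylated. For Hmgxb4 (chr8:75015972-75016221, plus strand), capitals mark a match to the binding motif GGTCTCTAA of PRDM14 on the opposite strand.
Ccnb1ip1: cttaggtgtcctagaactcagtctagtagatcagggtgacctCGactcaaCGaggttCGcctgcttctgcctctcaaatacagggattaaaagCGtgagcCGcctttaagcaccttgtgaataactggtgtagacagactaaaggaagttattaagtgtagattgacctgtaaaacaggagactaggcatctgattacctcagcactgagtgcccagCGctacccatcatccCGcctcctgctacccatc
Slfn8: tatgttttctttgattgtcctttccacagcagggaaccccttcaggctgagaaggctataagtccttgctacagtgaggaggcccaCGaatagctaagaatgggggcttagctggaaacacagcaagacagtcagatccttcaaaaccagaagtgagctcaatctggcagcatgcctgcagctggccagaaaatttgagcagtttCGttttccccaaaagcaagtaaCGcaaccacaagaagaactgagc
Hmgxb4: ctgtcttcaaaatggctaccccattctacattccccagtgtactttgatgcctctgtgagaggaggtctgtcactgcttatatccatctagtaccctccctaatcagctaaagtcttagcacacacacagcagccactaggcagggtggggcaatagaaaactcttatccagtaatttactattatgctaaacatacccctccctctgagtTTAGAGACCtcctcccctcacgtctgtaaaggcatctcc
The Ccnb1ip1 window holds 7 CG and the Slfn8 window 3. The motif, searched on both strands, was found in 79 of 32851 such windows (0.24%). Among 826 windows of genes that rose or fell it was found in those of 2 genes, Hmgxb4 and Tspan14, the second of which fell by 0.68 (adjusted p = 0.000472) and was chosen after its values were seen. A match is a run of letters and not a binding site, and its absence says nothing about the factor.

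The genotype difference itself was then compared between serum with MEK inhibitor and serum alone, media that differ by the inhibitor. It differed for 42 genes (0.231% of genes tested), 25 more positive with inhibitor (0.137%) and 17 more negative (0.0934%). The arrays of these media also differ in poly-A control level, so inhibitor and control level cannot be told apart in this comparison. Without labelled-knockout replicate 1 in serum 20 genes were called, and with the line (genotype and replicate number) as a random block 243. Same-numbered arrays of a genotype correlated between the media with r of 0.159 and 0.146, which is a hint from the data and not stated in the labels. Of the 42 genes, 28 had been called with inhibitor and 20 in serum, and 1815 genes passed at an unadjusted p under 0.05. In Nt5e the serum arrays read 8.37 and 8.64 in wild type and 8.71 and 8.21 in the arrays labelled knockout. In serum the groups thus overlapped, and with inhibitor only the wild-type arrays were lower, at 5.56 and 5.69 (difference between genotype differences 2.89, SE 0.35, adjusted p = 0.000755).

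Wild-type levels were also lower with inhibitor in Hs6st2, Sgce and Naprt. In serum the groups overlapped in Naprt, while in Hs6st2 and Sgce both arrays labelled knockout were above both wild-type arrays by less than with inhibitor. Hs6st2 read 9.01 and 8.99 in wild type and 9.07 and 9.44 in the arrays labelled knockout in serum, so that wild-type means were 2.45 lower with inhibitor than without and labelled-knockout means 0.07 higher (adjusted p = 7.74e-05 for the difference). Sgce means were 1.65 lower with inhibitor in wild type and 0.29 higher in the arrays labelled knockout (adjusted p = 0.00363), and Naprt means 1.70 lower and 0.11 higher (adjusted p = 0.000152). In Hmgxb4 the means moved in opposite directions, 0.74 lower and 0.79 higher (adjusted p = 0.000579). The calls of Nt5e, Hs6st2, Sgce, Naprt and Hmgxb4 held in each of the 8 fits that left out 1 array of the 4 groups. With the mean of probe sets the adjusted p was 0.345 for Nt5e, 0.229 for Sgce and 0.0913 for Hmgxb4.

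In 2 genes the wild-type arrays were the ones that were high with inhibitor. Pga5 read 5.03 and 5.23 in wild type and 4.63 and 5.10 in the arrays labelled knockout in serum, against 7.13 and 7.27 and 4.91 and 4.64 with inhibitor (difference -2.16, SE 0.30, adjusted p = 0.00363). 2300002M23Rik read 5.61 and 5.59 in serum and 8.71 and 8.74 with inhibitor in wild type, and 4.69 and 4.32 and then 4.58 and 5.05 in the arrays labelled knockout (difference -2.82, adjusted p = 0.00976). Pga5 held in all 8 fits and 2300002M23Rik in 6 of 8, with adjusted p of 0.0689 without labelled-knockout replicate 1 in serum and 0.0508 without it with inhibitor.

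The other genes named for this comparison were less stable. Vinac1 (3.68, adjusted p = 0.0415) held in 1 of 8 such fits, Iqcf5 (-3.24, 0.0323) and Clec3b (-3.18, 0.0323) in 2 of 8, and all 3 were dim, with no value above 4.91. Zmynd8 (-1.36, 0.0160) held in 3 of 8 and was -0.32 for the mean of probe sets (adjusted p = 0.602). Stard4 (-1.33, 0.00976), a sterol transfer protein, held in 6 of 8, and its adjusted p was 0.0546 without wild-type replicate 1 with inhibitor and 0.0673 without labelled-knockout replicate 1 in serum.

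Wild type did not move more than labelled knockout as a rule. Of the 25 genes with a more positive difference, mean levels moved more between serum and inhibitor in wild type for 10, and of the 17 with a more negative difference for 11. These moves are levels across the 2 poly-A control levels and were not tested, whereas each genotype difference was taken within 1 control level. The comparison of the genotype differences between these media still spans both control levels.

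**Figure D4:**
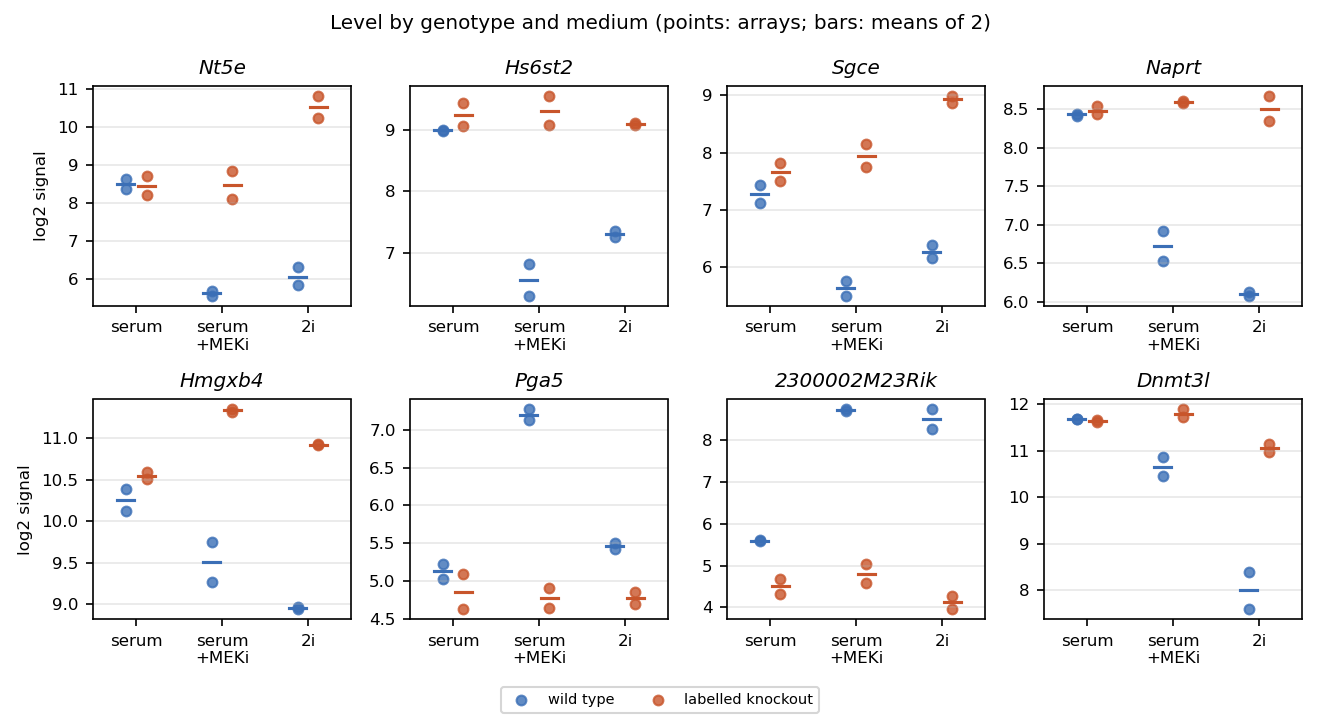
Log2 signal (y axis, own scale for each gene) in serum, serum with MEK inhibitor (MEKi) and 2i, wild type in blue and labelled knockout in orange, with points for arrays and bars for the mean of 2. Nt5e, Hs6st2, Sgce and Naprt have lower wild-type levels with inhibitor than in serum, Pga5 and 2300002M23Rik are high in wild type with inhibitor, and Dnmt3l has its lowest wild-type level, 7.6, in 2i.

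Between serum with MEK inhibitor and 2i, which share the inhibitor, the genotype difference differed for 11 genes (0.0605%), 8 more positive with serum and inhibitor (0.044%) and 3 more negative (0.0165%). Leaving out 1 array gave 4 to 35 genes, the most without labelled-knockout replicate 2 in 2i (35) and wild-type replicate 2 in 2i (23), and the fewest without labelled-knockout replicate 1 (4) and wild-type replicate 2 (6) with serum and inhibitor. With the line as a random block 55 genes were called. Of the 11, 5 had been called with serum and inhibitor and 9 in 2i, and 1303 genes passed at an unadjusted p under 0.05. Dnmt3l, the catalytically inactive cofactor of the de novo DNA methyltransferases, had the largest negative difference (-1.92, SE 0.24, adjusted p = 0.00244). In 2i it read 7.6 and 8.39 in wild type and 11.15 and 10.98 in the arrays labelled knockout, and with serum and inhibitor 10.45 and 10.87 against 11.89 and 11.72. Its rise was 3.07 in 2i and 1.14 with serum and inhibitor, and in serum the difference was -0.04.

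In several genes the fall seen in 2i was smaller with serum and inhibitor. Plekhg1 differed by -1.94 in 2i and -0.36 with serum and inhibitor (1.58, adjusted p = 0.000482), Fam178b by -1.85 and -0.40 (1.44, adjusted p = 0.00346) and Slain1 by -2.13 and -1.16 (0.98, adjusted p = 0.0127). Ddit4, an inhibitor of the growth kinase mTOR, rose by 0.76 with serum and inhibitor and differed by -0.14 in 2i (0.90, adjusted p = 0.00710). Dnmt3l, Plekhg1 and Fam178b held in each of 8 fits that left out 1 array, Ddit4 in 7 and Slain1 in 6. Gpx2 (1.72, 0.0407) held in 1 of 8, Pga5 (-1.74, 0.0401) in 1, the kinase gene Pim1 (1.08, 0.0401) in 2 and the R-spondin receptor gene Lgr4 (-0.61, 0.0401) in 3. For the mean of probe sets Slain1 was 0.37 (0.843) and Lgr4 -0.39 (0.978), and Plekhg1 (0.0944), Gpx2 (0.0522) and Pim1 (0.0573) were lost too. In a model of the 12 arrays that share the poly-A control level 1 gene was called, and Dnmt3l (0.180), Plekhg1 (0.0890) and Fam178b (0.180) were not.

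More of the calls were shared with 2i, where 1665 genes were called (9.15%), than with serum, where 759 were (4.17%). Of the 338 rises, 202 were also called in 2i (59.8%, and 30.6% of the 661 rises there, which are 3.63% of genes tested) and 48 in serum (14.2%, and 19% of 252 rises, 1.39% of genes). Of the 404 falls, 283 were also called in 2i (70.0%, and 28.2% of 1004 falls, 5.52% of genes) and 151 in serum (37.4%, and 29.8% of 507 falls, 2.79% of genes). In serum without LIF, where 763 genes were called (4.19%), 54 of the rises (16%, and 16.9% of 319, 1.75% of genes) and 115 of the falls (28.5%, and 25.9% of 444, 2.44% of genes) were called again. Calls of opposite direction numbered 2 rises and 2 falls against serum, 5 and 3 against serum without LIF and 0 against 2i. Rises called in no other medium numbered 114 and falls 79. Deviations of arrays of the same genotype and number correlated across media with r from 0.099 to 0.216, and their part in these overlaps was not tested. The 2i arrays share the poly-A control level of the arrays with MEK inhibitor, and those of serum with and without LIF do not. Medium and control level cannot be told apart in these overlaps.

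Gene groups were described by counts and medians beside all genes, of which 4.08% were called with a median difference of -0.005. Of all genes 1.86% rose and 2.22% fell, and the groups were chosen with earlier results of these data known. Of 22 naive pluripotency genes, 3 fell, 1 rose (Prdm14) and the median was -0.245. Klf5, a zinc finger factor of the naive network, read 11.76 and 11.75 in wild type and 10.91 and 10.79 in the arrays labelled knockout (-0.90, adjusted p = 0.000106), although 1 of its 2 further probe sets, which was dim, had a difference of 0.03 and the call was lost for the mean of probe sets (adjusted p = 0.331). Mitf, a transcription factor of lysosomal and pigment cell genes, read 9.41 and 9.46 against 7.99 and 7.76 (-1.56, adjusted p = 1.84e-05).

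Tcl1, a coactivator of the kinase AKT, read 11.08 and 11.54 against 9.92 and 9.97 (-1.36, adjusted p = 0.0121), with adjusted p of 0.0725, 0.0605 and 0.102 without labelled-knockout replicate 1 or 2 or wild-type replicate 2. Nanog (-0.09, adjusted p = 0.908), Esrrb (-0.43, 0.520), Tfcp2l1 (-0.84, 0.136), Zfp42 (-0.16, 0.581) and Nr5a2 (-0.49, 0.486) did not pass. In serum without inhibitor the median of the naive group was -0.768 and in 2i -0.092, beside -0.02 and -0.03 over all genes.

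Of 15 core pluripotency genes 2 rose, none fell and the median was 0.06. Utf1 read 9.93 and 9.72 against 10.37 and 10.37 (0.55, adjusted p = 0.00520), and was lost without wild-type replicate 2 (0.0631) and for the mean of its probe sets (0.138). Pou5f1 differed by 0.20 (adjusted p = 0.0359), which was lost in 3 of the 4 fits without 1 array (0.0798 to 0.351) and for the mean of probe sets (0.0525). Of 19 formative and primed genes Foxp1 (0.80) and Grhl2 (1.66), a factor of epithelial junction genes, rose and none fell. Foxp1 was lost without wild-type replicate 2 (0.171) or labelled-knockout replicate 2 (0.141), and Grhl2 without wild-type replicate 2 (0.220) or labelled-knockout replicate 1 (0.193). The 3 further probe sets of Grhl2 differed by -0.09 to 0.39, and for the mean of probe sets its difference was 0.57 (0.140).

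Among 16 genes of the LIF receptor and its effector STAT3, 3 fell and none rose (median -0.132), beside falls in 2.22% of all genes. Stat3, the effector itself, read 9.33 and 9.22 against 8.38 and 8.53 (-0.82, adjusted p = 0.00173). It lies on chromosome 11 and was still called without wild-type replicate 1 (adjusted p = 0.0258). Bcl3, a target of STAT3, read 7.67 and 7.61 against 6.13 and 6.33 (-1.41, adjusted p = 0.000601), and Pim1 10.79 and 10.86 against 10.16 and 10.06 (-0.72, adjusted p = 0.00339). The 3 genes were called in each fit that left out 1 array, while Lifr (-0.08, 0.929) and the feedback inhibitor Socs3 (0.18, 0.750) did not pass. In serum Stat3 differed by -0.60, Bcl3 by -0.85 and Pim1 by 0.31, and the change of the Pim1 difference with inhibitor passed (-1.02, adjusted p = 0.0242).

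Upstream and downstream of ERK 1 gene passed in each group. The shares were 7.14% of FGF ligands and receptors, 4.55% of heparan sulfate genes and 4.76% of ERK feedback genes, beside 4.08% of all genes. Of 14 FGF ligands and receptors only the receptor gene Fgfr1 passed, at 8.41 and 8.37 against 9.11 and 9.11 (0.72, adjusted p = 0.00138), and it held without each array. Fgf4 (0.44, 0.376) and Fgfr2 (-0.34, 0.546) did not pass. Of 22 heparan sulfate enzymes and proteoglycans Hs6st2 alone rose and none fell. Of 21 ERK feedback and early response genes Spry2, which damps receptor signalling, rose from 10.55 and 10.86 to 11.52 and 11.47 (0.79, adjusted p = 0.000128), and the ERK phosphatase gene Dusp6 (-0.34, 0.0923), Spry4 (0.34, 0.767) and Etv5 (-0.18, 0.662) did not pass.

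Of 10 DNA methyltransferases and cofactors Dnmt3l rose (1.14, SE 0.17, adjusted p = 0.000605) and none fell. Dnmt3b, a de novo enzyme, read 12.06 and 10.93 in wild type and 12.54 and 12.11 in those labelled knockout, and its difference of 0.83 missed the threshold (adjusted p = 0.0759). Dnmt3a, the other de novo enzyme, read 9.51 and 7.93 against 9.27 and 9.18 (0.50, adjusted p = 0.608), so its wild-type arrays lay on both sides of the labelled-knockout arrays. Both were low in wild-type replicate 2, which stands alone for wild type when replicate 1 is left out. Any rise of these 2 enzymes in that fit thus rests on that array alone. Of 8 Tet and demethylation genes none passed.

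The neighbours of Dnmt3l moved with it. Aire, the next gene in the RefSeq order, read 6.82 and 7.70 against 8.49 and 8.77 (1.37, adjusted p = 0.0157), and Icosl, the next on the other side, 5.77 and 5.71 against 6.99 and 7.25 (1.38, adjusted p = 0.000207). Aire was lost without wild-type replicate 1 (0.246) or labelled-knockout replicate 2 (0.118), Icosl was lost for the mean of probe sets (0.0842), and both genes were chosen after their values were seen. Whether their probe sets read transcripts that run between genes was not tested.

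Germline genes that DNA methylation is known to keep silent fell in 5 of 28 cases and rose in none, with a median of -0.292. Of all genes 2.22% fell. Ccnb1ip1 had the largest fall, given above. Hormad1, a protein of the meiotic chromosome axis, read 8.50 and 8.21 against 6.62 and 6.08 (-2.00, SE 0.32, adjusted p = 0.00136). Both genes were called in each fit that left out 1 array. Dazl, an RNA-binding regulator of germ cells, read 7.35 and 6.64 against 5.56 and 5.86 (-1.28, adjusted p = 0.0101), and Stag3, a meiotic cohesin subunit, fell by 0.82 (adjusted p = 0.0187).

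Tex14, a gene of germ cell bridges on chromosome 11, fell by 0.90 (adjusted p = 0.0462). Without wild-type replicate 1, 2 of 28 were called and the median was -0.16, with Dazl at an adjusted p of 0.167, Stag3 at 0.160 and Tex14 at 0.355. Without labelled-knockout replicate 1 the adjusted p of these 3 genes was 0.0938, 0.182 and 0.145, and Tex14 was also lost without either other array (0.0523 and 0.185) and for the mean of probe sets (0.0631). Ddx4 (-0.10, 0.958), Mael (0.14, 0.925) and Sycp3 (-0.22, 0.871) did not pass. The group median was -0.76 in 2i and -0.55 in serum, and no member had a genotype difference that passed as differing between serum with MEK inhibitor and either medium.

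The upstream 250 bases of Hormad1 (chr3:95559427-95559676, plus strand) and Dazl (chr17:50293621-50293870, minus strand) are set beside that of Dnmt3l (chr10:78042037-78042286, plus strand, the first of 3 listed) to show how they differ in CG, in capitals.
Hormad1: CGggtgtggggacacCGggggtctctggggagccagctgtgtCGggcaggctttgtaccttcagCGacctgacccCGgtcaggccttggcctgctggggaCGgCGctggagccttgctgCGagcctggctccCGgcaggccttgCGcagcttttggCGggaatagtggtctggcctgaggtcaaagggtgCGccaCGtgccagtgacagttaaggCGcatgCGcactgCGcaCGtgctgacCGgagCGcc
Dazl: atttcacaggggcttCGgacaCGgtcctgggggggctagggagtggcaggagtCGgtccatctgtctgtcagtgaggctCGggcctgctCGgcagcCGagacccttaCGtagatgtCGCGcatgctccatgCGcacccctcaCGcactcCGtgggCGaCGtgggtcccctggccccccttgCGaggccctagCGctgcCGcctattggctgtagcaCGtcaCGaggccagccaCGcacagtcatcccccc
Dnmt3l: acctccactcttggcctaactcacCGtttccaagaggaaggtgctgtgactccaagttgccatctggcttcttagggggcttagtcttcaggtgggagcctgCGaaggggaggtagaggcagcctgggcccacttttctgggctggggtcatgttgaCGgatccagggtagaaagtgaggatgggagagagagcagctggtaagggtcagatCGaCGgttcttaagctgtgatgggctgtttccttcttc
Hormad1 has 19 CG in this window, Dazl 20 and Dnmt3l 5. The median was 16.5 over 24 germline genes of the table, 16 over 277 genes that rose, 14 over 336 that fell and 12 over 13839 that were not called. Genes that rose and genes that fell thus both had more CG than genes not called, and this was not tested. Methylation was not measured in these samples.

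Imprinted genes, expressed from 1 parental copy, had 3 rises and 1 fall among 48 and a median of 0.103. The rises, Sgce, Peg10 and Ppp1r9a, are neighbours on chromosome 6. Peg10 read 3.52 and 2.76 against 4.61 and 5.28 (1.80, adjusted p = 0.0319), and Ppp1r9a rose by 0.72 (adjusted p = 0.00687) but not for the mean of its probe sets (0.620). Without wild-type replicate 1 Sgce remained called, while Peg10 (0.0543) and Ppp1r9a (0.124, and 0.0647 without labelled-knockout replicate 1) were not. The fall was that of Slc38a4, and its 2 arrays labelled knockout, at 4.76 and 6.09, were the lowest of the 4.

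The pattern of the largest falls over the other cells of the series was not the same from gene to gene. In knockout cells with the AGP14 transgene in serum, Slfn8 read 2.03 and 1.69 and Ccnb1ip1 5.06 and 4.62, near the arrays labelled knockout with MEK inhibitor. Slc38a4 read 9.06 and 9.46 and Rhox5 11.21 and 10.58 in the same cells, near wild type. Epiblast-like cells of day 2 had low Slfn8 (2.26 and 2.74) and high Ccnb1ip1 (7.86 and 7.86), Slc38a4 (9.16 and 9.27) and Rhox5 (11.68 and 11.61). No transgene arrays with MEK inhibitor were analysed here, so these levels are set side by side across media.

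Of 5 Rhox genes 1 fell, and Rhox6 (6.62 and 3.74 against 2.14 and 4.43) and Rhox9 (7.63 and 4.47 against 4.07 and 5.10) did not pass. In all 3 genes wild-type replicate 1 was higher than replicate 2. Of 9 Schlafen genes Slfn8 alone fell, and Slfn9 read 7.78 and 7.32 against 6.07 and 4.03 (-2.50, adjusted p = 0.0621). Of 12 clade B serpins 3 fell and none rose, beside falls in 2.22% of all genes. Serpinb6c read 9.02 and 9.53 against 6.74 and 5.51, Serpinb1b fell by 2.19 (adjusted p = 0.000601) and Serpinb1a by 1.82 (adjusted p = 0.0269), the last lost in each of the 4 fits without 1 array (0.0966 to 0.131). The further probe set of Serpinb1a, which was dim, differed by -0.18, and for the mean of probe sets its fall was 1.0 (0.296). These serpin genes are similar in sequence, so their probe sets may share signal.

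Of 21 genes of epithelial junctions 5 rose and none fell, with a median of 0.005, beside rises in 1.86% of all genes. The 5 code for claudins, which seal tight junctions, or for their partner Epcam. Cldn4 read 9.75 and 9.85 against 10.72 and 10.80 (0.96, adjusted p = 0.000195) and Cldn3, its neighbour, 6.09 and 5.82 against 6.89 and 6.98 (0.98, adjusted p = 0.00376). Cldn6 rose by 1.20 (adjusted p = 0.00535), Cldn7 by 1.38 (0.0214) and Epcam by 0.74 (0.0359).

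Without wild-type replicate 1 all 5 were still called, and without replicate 2 Cldn6 (0.0819), Cldn7 (0.149) and Epcam (0.352) were lost. Without labelled-knockout replicate 2 these 3 genes were lost as well (0.0693, 0.174 and 0.141), and Epcam also without replicate 1 (0.137). Cdh1, the epithelial cadherin, read 12.21 and 12.24 against 12.20 and 12.26 and did not differ beyond that spread. In serum the differences of the 5 were 0.15 to 0.64 and in 2i 0.36 to 0.78.

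Of 20 basement membrane genes Lama5 (0.90, adjusted p = 0.00534) and Col18a1 (0.45, 0.0103) rose and Lama1 and Nid1 (-0.62, 0.0116) fell. Laminin alpha chains thus changed in opposite directions. Lama5 (0.0949) and Col18a1 (0.101) were lost without wild-type replicate 1 and without labelled-knockout replicate 2 (0.0860 and 0.157), and Nid1 without wild-type replicate 2 (0.125) or labelled-knockout replicate 1 (0.106). For the mean of probe sets Lama5 (0.187) and Nid1 (0.0536) were lost.

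Glycolysis and lactate genes had 3 rises and 3 falls among 20 and a median of 0.038. Pdk1, a kinase that inhibits pyruvate dehydrogenase, read 10.32 and 10.06 against 11.06 and 11.02 (0.85, adjusted p = 0.00109), and the lactate carrier gene Slc16a1 11.11 and 11.08 against 10.59 and 10.59 (-0.50, adjusted p = 0.000128). Both held without each array, though Slc16a1 was lost for the mean of probe sets (0.173), and the Slc16a1 difference was more negative than in serum (-0.70, adjusted p = 0.00155). Pfkp (-0.57), Hk2 (-0.48), Ldha (0.30) and Tpi1 (0.26) passed with smaller differences and each was lost without at least 1 array, and Pfkp for the mean of probe sets (0.211). Of 29 genes of oxidative phosphorylation none passed, and their median was -0.02.

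Of 20 sterol synthesis genes Stard4 fell (-0.76, adjusted p = 0.00806) and none rose, with a median of -0.12 beside 0.248 in serum. Stard4 was lost without wild-type replicate 1 (0.0983) or labelled-knockout replicate 1 (0.131). The genotype difference was more negative with inhibitor than in serum for 3 of the 20, namely Hmgcs1 (-0.62, adjusted p = 0.00756) and Idi1 (-0.79, 0.00363), which make sterol precursors, and Stard4. Hmgcs1 and Idi1 had been higher in the arrays labelled knockout in serum (0.51 and 0.66) and differed by -0.11 and -0.13 with inhibitor. Of 13 fatty acid synthesis genes Acly (-0.32, a gene of chromosome 11) and Thrsp (-1.54) fell, both lost without wild-type replicate 1 (0.413 and 0.0707) and for the mean of probe sets (0.719 and 0.233).

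Among 23 polycomb genes Rbbp7 rose (0.36, adjusted p = 0.000259), and Ezh2, the methyltransferase of the complex, read 10.94 and 10.94 against 10.59 and 10.64 (-0.32, adjusted p = 0.00322). Bmi1 fell by 0.86 (0.0449) and was lost without labelled-knockout replicate 1 (0.264) or 2 (0.0751) or wild-type replicate 2 (0.315), and for the mean of probe sets (0.0962). Of 15 primordial germ cell genes Prdm14 rose, and Kit, a receptor tyrosine kinase, read 9.77 and 9.95 against 8.22 and 8.65, a fall of 1.42 (adjusted p = 0.000485). Foxh1, a partner of SMAD proteins in Nodal signalling, was the only gene of 14 in that pathway to pass (0.70, adjusted p = 0.000601), and its difference in serum was -0.08 (change with inhibitor 0.78, adjusted p = 0.0320).

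Single members passed in several other groups. The interferon-induced gene Bst2 (0.82), the histone methyltransferase gene Setdb1 (0.48) and Ddit4 rose, the carbonic anhydrase family member Car8 (-1.56) fell, and each was called without each array, with Car8 (0.0988) and Setdb1 (0.0631) lost for the mean of probe sets. Dab2 (1.34), Krt8 (1.40), Snai1 (0.96), Sox11 (1.32) and Cdc20 (0.22) rose and Tubb3 (-0.95), Nupr1 (-0.78) and Tfrc (-0.38, chromosome 16) fell, each lost without at least 2 of the 4 arrays in turn. For the mean of probe sets Dab2 was 0.53 (0.314), and Tubb3 (0.0538) and Tfrc (0.148) were lost too. No gene of the Wnt response (16), BMP and Id (12), 2-cell-like (9) or p53 response (16) groups passed. Of 29 feeder fibroblast genes Vim fell (-0.55, adjusted p = 0.00500, and 0.0860 without labelled-knockout replicate 2) and the median was -0.15.

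**Figure D5:**
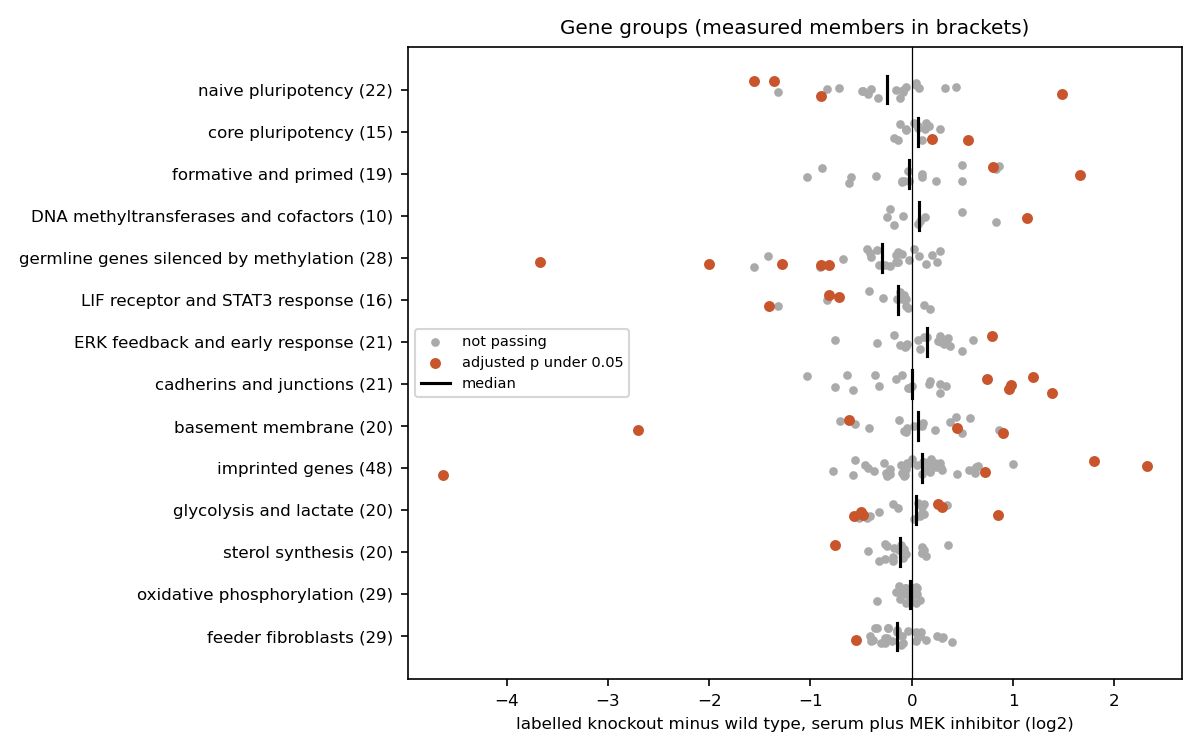
Labelled knockout minus wild type (log2, x axis) for each measured member of 14 gene groups, in orange where the adjusted p was under 0.05 and in grey otherwise, with the median as a black bar. Junction genes have 5 rises and no fall, germline genes 5 falls and no rise, and oxidative phosphorylation genes stay near their median of -0.02. Of all genes 1.86% rose and 2.22% fell.

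Genes next to Prdm14 were examined because the locus was targeted, and were chosen after their values were seen. Of the 8 measured genes on each side in RefSeq order (16 in all), 1 rose and 4 fell, beside 1.86% and 2.22% of all genes. Prex2 rose here and in every other medium (1.82 in 2i, 2.10 in serum and 1.86 without LIF). Slco5a1, the nearest measured gene on one side, read 6.95 and 5.98 against 4.66 and 4.49 (-1.89, adjusted p = 0.0160), and differed by -1.96 in 2i and -0.26 in serum. Its further probe set had the opposite sign (0.44), and for the mean of probe sets the difference was -0.73 (0.658). Msc read 7.92 and 8.24 against 5.99 and 6.56 (-1.80, 0.0387) and its neighbour Eya1 7.24 and 7.68 against 5.37 and 6.62 (-1.46, 0.0244).

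A830018L16Rik fell by 1.48 (0.0111). Msc was lost in each of the 4 fits without 1 array (0.0758 to 0.229), Slco5a1 and Eya1 in 3 (0.0670 to 0.226 and 0.0603 to 0.305) and A830018L16Rik in 2 (0.0835 and 0.0921). For the mean of probe sets Eya1 was -0.73 (0.132) and Msc was lost too (0.0543). Ncoa2, the nearest on the other side, did not pass (-0.27, 0.172). Over the genome 41 of 18119 adjacent pairs of measured genes were called in the same direction, 20 of them rises and 21 falls. A further 9 were called in opposite directions. Of single genes 4.08% were called, and no expected number of such pairs was worked out. Beside those named above, pairs chosen after their values were seen include Eras with Hdac6 (1.38 and 0.46), Abcb1a with Abcb1b (-1.34 and -1.01), S100a1 with S100a13 (-1.43 and -1.99), Klf5 with Klf12 (-0.90 and -1.50) and Tcl1 with Tunar (-1.36 and -1.52).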

How the data were processed

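RNA was purified with an RNeasy Micro kit and hybridised to Affymetrix arrays after one-cycle labelling, per the labels' protocols. The authors deposited 1 value per probe set on a log2 scale, a base inferred here from the largest value of 13.85, within the range of a scanner. No source used here names the normalization. Of 45100 probe sets, 34944 carried a single gene symbol, 932 several and 9160 none, and 64 were controls. Each of 18193 genes was taken as the probe set brightest on average across the 26 arrays.

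The model (limma 3.58.1, R 4.3.3) had 1 term for each of 13 groups of 2 arrays, 13 residual degrees of freedom and an intensity trend. Adjusted p-values are Benjamini-Hochberg over all genes, two-sided, with a threshold of 0.05. The number of arrays limits the precision. On simulated data with 18193 genes, the knockout test called 18 of 67 genes changed 1.5-fold and 42 of 67 changed 2-fold. It called 53 of 66 changed 4-fold and 4 unchanged genes. The simulated errors were independent between arrays, without the deviations that same-numbered real arrays share. The 4 is thus not an error rate of the 742 calls. The members, the 40 gene lists (695 of 758 entries measured) and the tests were chosen with earlier results of these data known. Named genes are the 15 largest rises and falls among called genes whose values do not overlap between the groups. They also include the largest medium-dependent differences and members of the lists, with others named as such. Promoters are from RefSeq. Alternatives covered the arrays fitted, normalization, probe sets, dim genes (under 4.92), blocks, chromosomes 11 and 16, and each array left out.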

Additional observations from a re-analysis of the deposited data

Results flagged for a closer look

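The genotype difference with MEK inhibitor differed from that in serum, by the test of the difference itself, in the 12 genes named for that comparison. The difference was more positive with inhibitor by 3.68 in Vinac1, 2.89 in Nt5e, 2.52 in Hs6st2, 1.93 in Sgce, 1.80 in Naprt and 1.53 in Hmgxb4. It was more negative in Iqcf5 (-3.24), Clec3b (-3.18), 2300002M23Rik (-2.82), Pga5 (-2.16), Zmynd8 (-1.36) and Stard4 (-1.33). Against 2i, the difference was more positive with serum and inhibitor in Gpx2 (1.72), Plekhg1 (1.58), Fam178b (1.44), Pim1 (1.08), Slain1 (0.98) and Ddit4 (0.90). It was more negative in Dnmt3l (-1.92), Pga5 (-1.74) and Lgr4 (-0.61). Pga5 is named in both sets, being high in wild type with serum and inhibitor alone among the 3 media. Groups of 2 arrays are too small to be searched for single arrays far from the rest.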

How the results depend on the processing

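The 742 calls with MEK inhibitor numbered 438 for the mean of probe sets, 372 in the 12 arrays of 1 poly-A control level, 21 when the 4 compared arrays alone were fitted, and 334 to 624 with 1 array left out. The lowest of these was without wild-type replicate 1. Quantile normalization turned the split from 45.6% to 50.6% rises, and leaving out wild-type number 1 in every medium to 57.5%. The 42 genes that differed from serum numbered 25 in 22 stem cell arrays, 20 without the trend, 21 for the mean of probe sets, 65 without dim genes, 64 with the replicate block, 243 with the line as a random block, 63 without chromosomes 11 and 16, 67 without wild-type number 1, 0 in the compared arrays alone and 20 to 44 with 1 array left out. Under quantile normalization they numbered 51, with 45.1% more positive against 59.5%. The 11 genes that differed from 2i numbered 6 in 22 arrays, 6 without the trend, 6 for the mean of probe sets, 14 without dim genes, 9 with the replicate block, 55 with the line block, 3 without wild-type number 1, 1 in the 12 arrays, 0 in the compared arrays alone and 4 to 35 with 1 array left out. The replicate block gave 931 calls with MEK inhibitor. Replicate numbers did not pair the genotypes, since deviations of same-numbered wild-type and labelled-knockout arrays correlated at -0.015. No called difference that was followed through the alternatives changed sign. Genes named as not passing were not followed. Among them Dnmt3a had wild-type arrays on both sides of the labelled-knockout arrays, so leaving out 1 array turns its sign. The 0 counts come from limma on 8 arrays, where 1282 genes for serum and 821 for 2i passed at an unadjusted p under 0.05. Of the named differences with MEK inhibitor, 126 of the values with 1 array left out and 196 under the other settings no longer passed, against 242 and 805 that did. Depth has no meaning for arrays, and dim probe sets limit genes such as Vinac1, Iqcf5 and Clec3b.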
